A study of Mus musculus with 10 samples.

Results

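The Notch system was followed in lung tissue through 10 genes: the receptors Notch1, Notch2, Notch3 and Notch4, the ligands Jag1, Jag2, Dll1 and Dll4, and the target genes Hey1 and Hes1. Members were taken by gene name, and all 10 were found among the 54532 genes of the FPKM table (fragments per kilobase of gene, scaled to the depth of the library). The samples were lungs of wild-type C57BL/6J mice at P30. The 5 samples of the IPF group (increased pulmonary flow) came from mice given an aortocaval fistula at P7, made by a needle puncture from the abdominal aorta into the vena cava beside it. The 5 samples of the sham group came from mice whose vessels were exposed but not punctured. Each sample was RNA of lung tissue, so a level in it averages over all cell types, and fewer cells of a type and less RNA per cell cannot be told apart.

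Notch signaling passes between touching cells. A ligand of the Jagged or Delta-like family on a cell binds a receptor on its neighbour, ADAM proteases and then γ-secretase cut the receptor, and the freed intracellular part joins RBPJ in the nucleus to switch on genes of the Hes and Hey families. In blood vessels Dll4, Notch1 and Notch4 are known from endothelial cells, where Notch signaling takes part in arterial identity and sprouting, whereas Notch3 is known from smooth muscle cells and pericytes and maintains the muscular coat of small arteries. Jag1, Jag2, Dll1 and Notch2 are used more widely, also in airway epithelium and lymphoid cells.

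The groups differed in more than the operation. Xist, an RNA made from the inactive X chromosome, was at 26.8 to 43.2 FPKM in the IPF lungs and at 0.0301 to 0.0767 FPKM in the sham lungs, and the Y-linked Ddx3y was at 0 in all 5 IPF lungs and at 14.3 to 21.4 FPKM in the sham lungs, so the effects of the fistula and of sex cannot be told apart for any gene below. Of 14 circadian clock genes, 13 had a limma adjusted p under 0.05, and whether the phase of the clock has a part in the Notch results was not tested. Markers of other cell types also moved with the groups. All 5 B cell markers were higher in the IPF group (summed level 31.7 to 47.8 against 17.1 to 28.0 FPKM), as were 2 of 6 T cell markers, Trbc2 and Cd4 (summed level of the 6 at 16.4 to 22.1 against 10.2 to 15.7 FPKM), and 2 of 8 macrophage and monocyte markers, Plac8 and Ccr2 (summed level of the 8 at 279.3 to 443.3 against 227.7 to 392.4 FPKM). Of 8 fibroblast markers, 2 were higher in IPF, Pdgfra and Lum (summed level of the 8 at 1155 to 1507 against 803.7 to 1383 FPKM). All 8 neutrophil markers had a positive log2 fold change, 5 of them at an unadjusted p under 0.05 and none at an adjusted p under 0.05 by limma (summed level 54.3 to 302.6 against 16.4 to 78.2 FPKM). The part of these cells in the Notch results was not tested. The libraries held 15483046 to 19026843 reads on genes. Of 10 ciliated airway markers, 9 had a negative log2 fold change (median -0.36), with 0 at an unadjusted p under 0.05 by limma. Of 6 alveolar type 1 markers, 3 were lower in IPF at an unadjusted p under 0.05 and 0 at an adjusted p under 0.05 by limma. The part of these cells was not tested either. Sham replicate 1 stood apart with 25486 genes above 0, against 22475 to 23575 in the other libraries, and IPF replicate 3 had the highest summed level of the 10 ciliated airway markers, at 306.3 FPKM, where the others had 168.9 to 260.1. The heart muscle markers summed to 151.2 FPKM in IPF replicate 4 and 138.0 FPKM in sham replicate 3, against 16.3 to 54.3 FPKM in the other libraries, and the neutrophil markers to 302.6 FPKM in IPF replicate 5, against 16.4 to 80.3 FPKM in the others.

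The sequence just upstream of the start sites of Notch4 and Notch3 is shown first. The plan was to show Hey1, Hes1 and members with a limma adjusted p under 0.05, which only Notch4 had. Notch3 (limma adjusted p = 0.771) was added after its values beside those of Notch4 were seen. The windows run from 250 bases before the start to the start itself, 5′ to 3′ on the strand of the gene, from RefSeq promoters on GRCm38.p6, for Notch4 at chr17:34564045-34564294 on the plus strand and for Notch3 at chr17:32166891-32167140 on the minus strand. Capitals mark matches to the N-box CACNAG, the kind of site that Hes repressors are known to bind. Notch3 has a pair of them, and Notch4 has none.
Notch4: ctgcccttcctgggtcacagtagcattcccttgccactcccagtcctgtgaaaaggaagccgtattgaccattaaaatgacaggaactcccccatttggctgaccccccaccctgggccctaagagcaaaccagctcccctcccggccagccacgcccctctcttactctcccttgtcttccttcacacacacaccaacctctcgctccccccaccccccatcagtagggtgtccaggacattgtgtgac
Notch3: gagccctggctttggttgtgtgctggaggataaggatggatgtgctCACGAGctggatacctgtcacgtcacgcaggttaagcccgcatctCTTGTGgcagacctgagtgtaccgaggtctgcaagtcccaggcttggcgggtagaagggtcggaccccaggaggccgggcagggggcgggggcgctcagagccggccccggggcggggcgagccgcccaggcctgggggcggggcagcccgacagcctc
Of the 10 members, 8 matched an entry in the RefSeq promoter table, with 9 start sites since Dll1 has a pair of them, and Hey1 and Hes1 had no entry. The windows of 300 bases (250 before and 50 after the start) were searched on both strands. The RBPJ core TGGGAA was in none of the 9 windows, and in 25.6% of the 32851 promoters of the same length. The longer GTGGGAA, which contains it, was in 6.38% of all promoters, the E-box CACGTG, which clock factors bind, in 7.15%, and neither was in a member window. CACNAG was in the windows of Notch1, Notch2, Notch3, Dll1 and Dll4, and in 42.5% of all promoters. These are matches of letters only, and binding was not measured.

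All 10 members were expressed well above the filter of a mean of 0.1 FPKM, with 555 reads or more per sample. Levels are per length of gene as deposited, which was 14232 bases for Notch1, 10782 for Notch2, 8044 for Notch3 and 8061 for Notch4. Whether these lengths match the transcripts expressed was not tested. Orders and shares of different genes hold only as far as they do. Averaged over the 10 lungs, Hey1 was highest at 43.8 FPKM, followed by Dll4 (35.7 FPKM), Hes1 (30.9 FPKM), Notch4 (30.4 FPKM) and Notch3 (26.3 FPKM). A step down separated Notch3 from Notch2 (13.9 FPKM), with Notch3 higher in 10 of 10 lungs, and Notch1 (13.1 FPKM), Jag1 (11.2 FPKM), Dll1 (10.1 FPKM) and Jag2 (9.90 FPKM) followed. The order of Hes1, Notch4 and Notch3 in this mean over both groups held in neither group. Hes1 was above Notch4 in 5 of 5 IPF lungs and 0 of 5 sham lungs, and Notch4 was above Notch3 in 1 of 5 IPF lungs and 5 of 5 sham lungs. In sham the means ran from Notch4 (35.4 FPKM), level with Dll4 (35.7 FPKM), to Hes1 (27.7 FPKM) and Notch3 (25.5 FPKM), and in IPF from Hes1 (34.2 FPKM) to Notch3 (27.1 FPKM) and Notch4 (25.5 FPKM). These orders are a description, with no test. Dll1 was above Jag2 in 2 of 5 lungs of each group, so the order of this pair was within the spread between lungs.

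**Figure D1:**
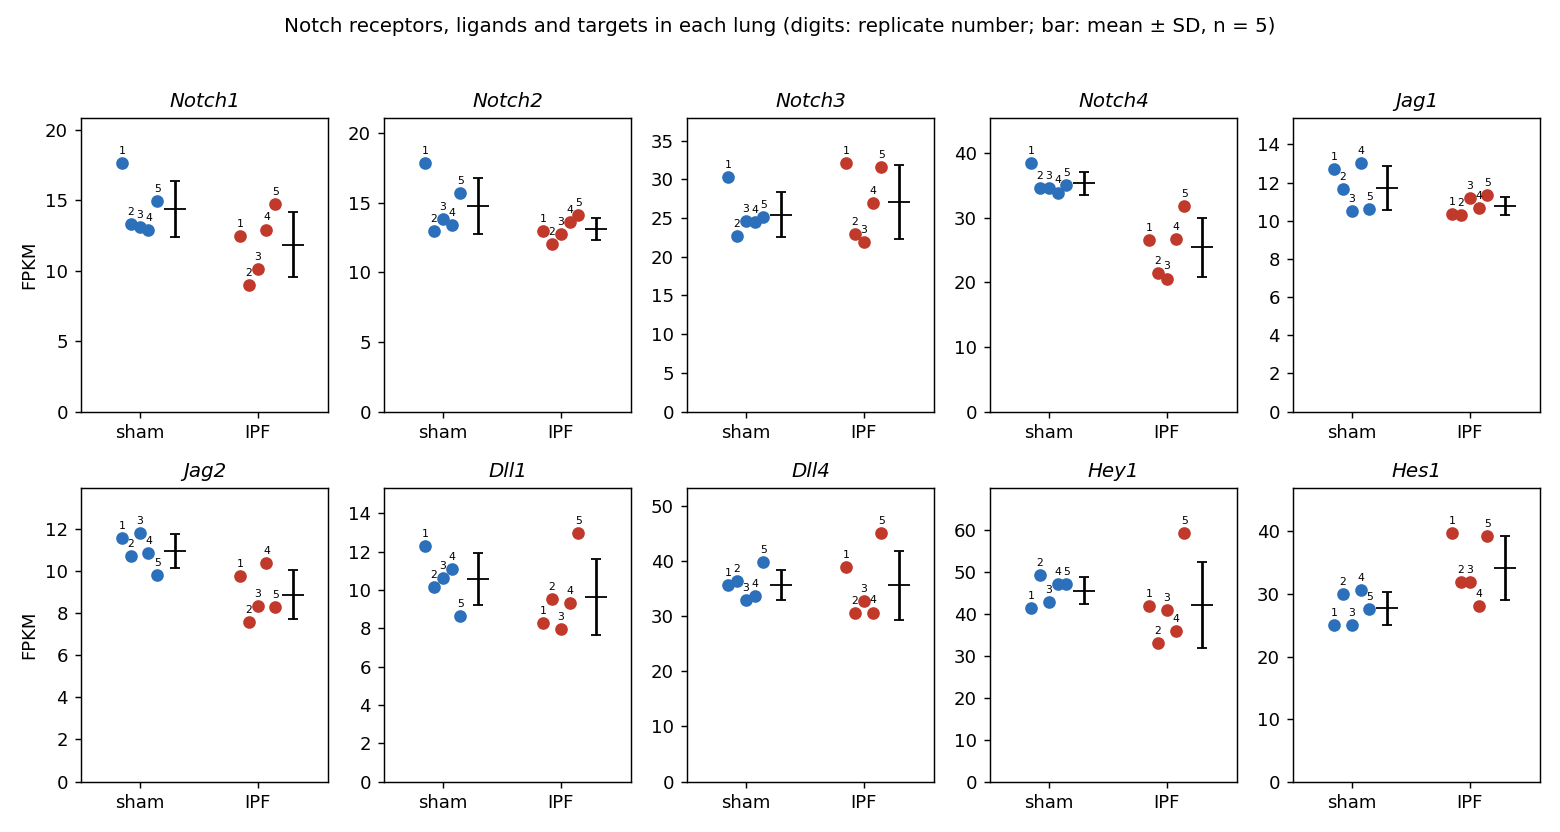
FPKM (vertical axes, from 0) of each of the 10 genes in the 5 sham lungs (blue) and the 5 IPF lungs (red), with replicate numbers beside the points and the mean ± SD (n = 5) as black bars. The groups are apart without overlap for Notch4, where the IPF lungs reach 31.9 FPKM and the sham lungs start at 33.9 FPKM, and they overlap for the other 9 genes.

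Of the 10 members, 1 had an adjusted p under 0.05 between the groups (limma on log2(FPKM + 0.1), adjusted over all 20448 genes tested), and it was lower in the IPF group. Over all genes tested the same limit was passed by 5.85%, with 3.71% higher and 2.14% lower in IPF, so 1 of 10 is near the background. None of the 10 members passed the further limit of an absolute log2 fold change above 1, which 1.14% of all genes passed with the adjusted p. The unadjusted p was under 0.05 for 3 members, beside 19.5% of all genes. The groups did not overlap for 1 member, beside 7.29% of all genes (4.52% higher and 2.77% lower in IPF). The log2 fold change was negative for 8 members and positive for 2, beside 49.6% of all genes tested with a negative sign. Its median was -0.14, beside 0.0016 over all genes tested. Members that vary together between lungs, as described below, do not give independent signs.

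**Figure D2:**
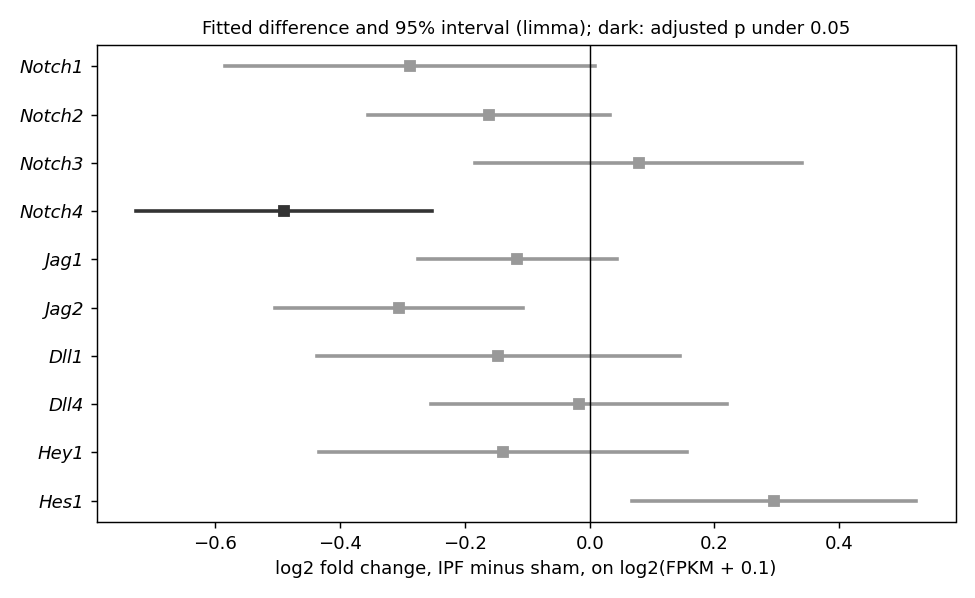
Fitted log2 fold change (IPF minus sham, horizontal axis) of each member with its 95% interval from limma, dark where the adjusted p was under 0.05. The interval of Notch4, from -0.73 to -0.25, lies to the left of 0, and those of Jag2 and Hes1 also leave out 0 although their adjusted p were 0.0768 and 0.135.

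Notch4 (ENSMUSG00000015468, chromosome 17 of GRCm38, 34564268 to 34588503, plus strand), the receptor known mainly from endothelium, was lower in the IPF group. It was at 26.6, 21.4, 20.6, 26.7 and 31.9 FPKM in IPF replicates 1 to 5, and at 38.5, 34.6, 34.7, 33.9 and 35.1 FPKM in sham replicates 1 to 5. Every IPF lung lay below every sham lung, a separation in this direction that 2.77% of all genes tested had. The means were 25.5 ± 4.59 FPKM in IPF and 35.4 ± 1.81 FPKM in sham (SD, n = 5 each). The log2 fold change was -0.49 (standard error 0.11, limma adjusted p = 0.0226), so that the IPF level was 0.712 of the sham level (95% interval 0.604 to 0.840). An exact permutation test over the lungs gave a two-sided p of 0.00794, the smallest that 5 against 5 allow.
The call of Notch4 was close to the threshold. Its limma adjusted p was 0.0565 without IPF replicate 2, 0.050 (not under the threshold) without sham replicate 1 and 0.0503 without sham replicate 3, and it passed in the other 7 of the 10 fits that each left out 1 lung, with 0.0381 without IPF replicate 3, 0.0448 without IPF replicate 4 and 0.00321 without IPF replicate 5. Without both IPF replicate 3 and sham replicate 1, the libraries apart in genes detected and in ciliated markers, the difference was -0.39 in log2 (adjusted p = 0.0689 by limma). The direction was the same in all 24 alternatives.

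Notch3 (ENSMUSG00000038146, chromosome 17, 32120820 to 32166880, minus strand), the receptor of smooth muscle and pericytes, was at 32.1, 22.9, 21.9, 26.9 and 31.6 FPKM in IPF replicates 1 to 5, and at 30.3, 22.7, 24.6, 24.5 and 25.2 FPKM in sham replicates 1 to 5. Both groups spread widely and overlapped, and the log2 fold change was 0.08 (standard error 0.12, 95% interval -0.18 to 0.34, limma adjusted p = 0.771, and p = 0.571 by exact permutation).
Set against each other, the receptors divided the lungs by group. Notch3 FPKM over Notch4 FPKM was 1.21, 1.07, 1.06, 1.01 and 0.99 in IPF replicates 1 to 5, and 0.787, 0.656, 0.709, 0.722 and 0.718 in sham replicates 1 to 5. Notch4 was thus the most abundant receptor in all 5 sham lungs, and in the IPF lungs Notch3 and Notch4 were about level. This ratio was chosen after its values were seen and is given with no test. Of the summed FPKM of the 4 receptors, Notch4 made up 39.4 ± 1.74% in sham and 32.8 ± 1.26% in IPF, Notch3 28.3 ± 0.813% and 34.9 ± 1.91%, Notch2 16.4 ± 0.790% and 17.1 ± 1.86%, and Notch1 15.9 ± 0.757% and 15.2 ± 0.957% (SD, n = 5 each). Shares of 1 total depend on each other, so a lower share of Notch4 means a higher sum of the other shares, but not a rise of each. The mean share was higher in IPF for Notch3 and Notch2 and lower for Notch1. The groups overlapped for Notch2 and Notch1.

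**Figure D3:**
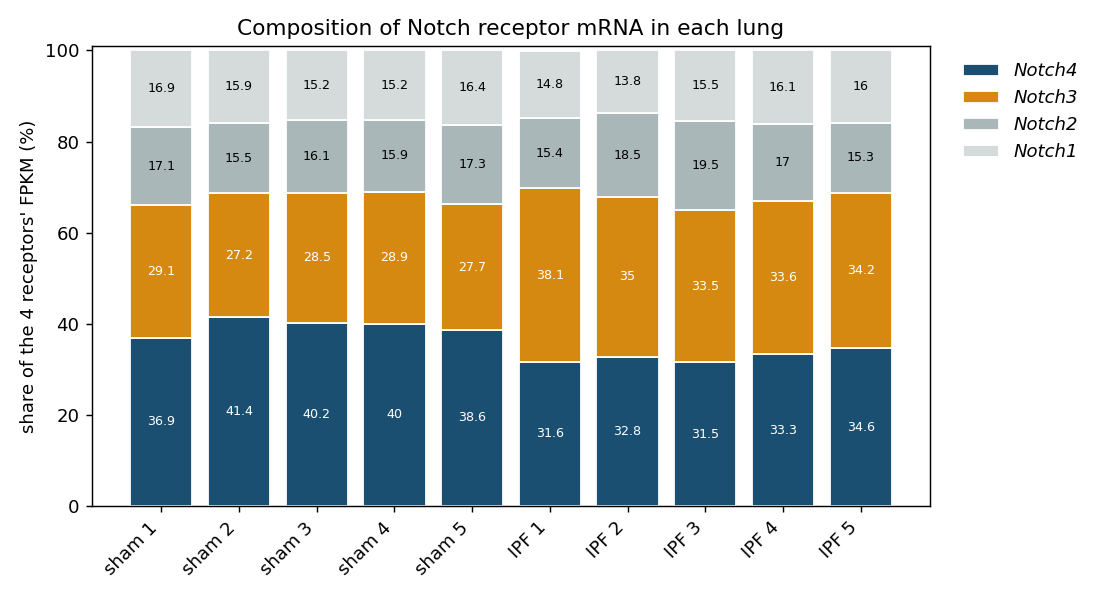
Share (%) of each receptor in the summed FPKM of Notch1 to Notch4 in each lung, sham lungs on the left and IPF lungs on the right. Notch4 holds 36.9 to 41.4% in the sham lungs and 31.5 to 34.6% in the IPF lungs, while Notch3 holds 27.2 to 29.1% and 33.5 to 38.1%.

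Notch1 (ENSMUSG00000026923, chromosome 2, 26457903 to 26516663, minus strand), which with Dll4 restrains sprouting in endothelium, was at 12.4, 9.01, 10.1, 12.9 and 14.7 FPKM in IPF replicates 1 to 5 and at 17.6, 13.3, 13.1, 12.9 and 14.9 FPKM in sham replicates 1 to 5. Of the IPF lungs, 3 lay below all sham lungs and the others overlapped them. The log2 fold change was -0.29 (standard error 0.14, 95% interval -0.58 to 0.0088, limma adjusted p = 0.270, and p = 0.0952 by exact permutation).
Notch2 (ENSMUSG00000027878, chromosome 3, 98013527 to 98150361, plus strand), which lymphoid, mesenchymal and airway cells use, was at 12.1 to 14.1 FPKM in IPF and 13.0 to 17.9 FPKM in sham, a log2 fold change of -0.16 (95% interval -0.36 to 0.032, limma adjusted p = 0.351). Sham replicate 1 had the highest sham level of Notch1, Notch2, Notch3 and Notch4. Non-coding genes overlap Notch1, Notch2, Notch3 and Notch4, but none of these held more than 14 reads in a library.

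None of the 4 ligands had an adjusted p under 0.05 from limma. At an unadjusted p under 0.05 there was 1, Jag2, which limma voom on the reads recovered from the FPKM values also called (adjusted p = 0.0493). Jag2 (ENSMUSG00000002799, chromosome 12, 112907819 to 112929776, minus strand), a Jagged ligand of airway and endothelium, was at 9.73, 7.59, 8.35, 10.4 and 8.29 FPKM in IPF replicates 1 to 5 and at 11.6, 10.7, 11.8, 10.8 and 9.80 FPKM in sham replicates 1 to 5. Of the IPF lungs, 4 lay below all sham lungs and IPF replicate 4 overlapped them. Jag2 had a log2 fold change of -0.31 (standard error 0.090, 95% interval -0.50 to -0.11, limma adjusted p = 0.0768, and p = 0.0159 by exact permutation), and without IPF replicate 4 it was -0.36 (limma adjusted p = 0.0450).
Jag1 (ENSMUSG00000027276, chromosome 2, 137081456 to 137116644, minus strand), which signals from endothelium to the smooth muscle around it, was at 10.3 to 11.3 FPKM in IPF and 10.5 to 13.0 FPKM in sham, a log2 fold change of -0.12 (95% interval -0.28 to 0.043, limma adjusted p = 0.420). Dll1 (ENSMUSG00000014773, chromosome 17, 15367354 to 15376872, minus strand), a ligand used in lymphoid and epithelial fate choices, was at 7.96 to 13.0 FPKM in IPF and 8.63 to 12.3 FPKM in sham (log2 fold change -0.15, 95% interval -0.44 to 0.14, limma adjusted p = 0.598). The lncRNA A930024N18Rik, on the opposite strand, overlaps the start of Dll1 and held at most 34 reads.
Dll4 (ENSMUSG00000027314, chromosome 2, 119325784 to 119335962, plus strand), the Delta-like ligand of arteries and sprout tips, was the most abundant ligand and made up 54.6 ± 3.34% of the summed ligand FPKM in IPF and 51.8 ± 3.69% in sham (SD, n = 5 each). Its means were 35.6 ± 6.29 and 35.7 ± 2.73 FPKM (SD, n = 5 each), and the 95% interval of the difference ran from -0.25 to 0.22 on the log2 scale (log2 fold change -0.018, limma adjusted p = 0.955). IPF replicate 5, at 45.1 FPKM, was above all sham lungs while 3 IPF lungs were below them, and the sign of the difference turned when any of IPF replicates 2, 3 or 4 or sham replicate 5 was left out. Gm14207, on the opposite strand, overlaps the start of Dll4 and held at most 88 reads. The log2 ratio of Jag1 to Dll4, ligands that can act in opposite ways on sprouting, was -1.70 ± 0.22 in IPF and -1.60 ± 0.20 in sham (SD, n = 5 each), a difference of -0.098 within the spread between lungs (exact permutation test, two-sided p = 0.508).

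Neither target gene had an adjusted p under 0.05 from limma, and neither did by limma voom. At an unadjusted p under 0.05 there was 1, Hes1. Hes1 (ENSMUSG00000022528, chromosome 16, 30064384 to 30067796, plus strand), a bHLH repressor that many signals besides Notch induce, was at 39.7, 31.9, 31.9, 28.1 and 39.2 FPKM in IPF replicates 1 to 5 and at 25.1, 30, 25.04, 30.7 and 27.6 FPKM in sham replicates 1 to 5. Of the IPF lungs, 4 lay above all sham lungs and IPF replicate 4 overlapped them. Hes1 had a log2 fold change of 0.30 (standard error 0.10, 95% interval 0.068 to 0.52, limma adjusted p = 0.135, and p = 0.0397 by exact permutation), with limma adjusted p between 0.0727 and 0.253 when each lung was left out in turn.
Hey1 (ENSMUSG00000040289, chromosome 3, 8663359 to 8667256, minus strand), a bHLH repressor that Notch induces in arterial endothelium, was at 41.8, 32.9, 40.9, 35.8 and 59.2 FPKM in IPF replicates 1 to 5 and at 41.4, 49.1, 42.8, 47.1 and 47.2 FPKM in sham replicates 1 to 5. IPF replicate 5 was the highest of all 10 lungs, and 3 IPF lungs lay below all sham lungs. The log2 fold change was -0.14 (standard error 0.13, 95% interval -0.43 to 0.16, limma adjusted p = 0.622, and p = 0.405 by exact permutation), and neither Hey1, with a negative sign, nor Hes1, with a positive sign, passed. Leaving out IPF replicate 5 gave Hey1 a difference of -0.27 in log2 (adjusted p = 0.0868 by limma).

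The lower Notch4 was set beside markers of the cells that express it. The summed level of 10 pan-endothelial markers was higher in the IPF lungs, 1290 to 1464 FPKM against 1154 to 1200 FPKM, without overlap, and none was at 0. Without Cldn5, left out after seeing the data, the sums of the other 9 overlapped, at 857.8 to 1017 FPKM in IPF and 832.6 to 915.9 FPKM in sham. Of these 10, 1 rose, the tight junction gene Cldn5, from 308.5 ± 42.8 to 450.5 ± 20.7 FPKM (SD, n = 5 each; difference 0.56 in log2, adjusted p = 0.0107 by limma). At an unadjusted p under 0.05, 3 were higher and 0 lower, and 9 of the 10 had a positive log2 fold change. Tek, the angiopoietin receptor, was above all sham lungs in all 5 IPF lungs, at 125.4 ± 11.2 against 104.3 ± 6.75 FPKM (SD, n = 5 each; difference 0.26 in log2, adjusted p = 0.0636 by limma). Cdh5, the adhesion molecule of endothelial junctions, was at 280.1 ± 20.2 FPKM in sham and 305.6 ± 29.9 FPKM in IPF (SD, n = 5 each; adjusted p = 0.486 by limma). Of 6 arterial markers, 2 rose, the gap junction genes Gja5 (log2 fold change 0.76, limma adjusted p = 0.0211) and Gja4 (0.44, 0.0270), and the summed level was 173.6 to 218.2 FPKM in IPF against 148.6 to 175.3 FPKM in sham. The venous markers did not move together. Of 4, 1 rose, the transcription factor Nr2f2, from 11.6 ± 0.611 to 15.1 ± 1.89 FPKM (SD, n = 5 each; difference 0.37 in log2, adjusted p = 0.0280 by limma). Slc6a2, a noradrenaline transporter, was at 33.5 ± 4.59 FPKM in sham and 23.7 ± 6.77 FPKM in IPF (SD, n = 5 each; difference -0.53 in log2, adjusted p = 0.0928 by limma), and the summed level of the 4 overlapped, at 118.7 to 154.3 FPKM in IPF and 126.2 to 143.5 FPKM in sham. Of 8 capillary markers, none passed limma, with 1 higher and 1 lower at an unadjusted p under 0.05, and their summed level overlapped, at 776.5 to 897.1 FPKM in IPF and 808.5 to 839.7 FPKM in sham.
Notch4 less the mean log2 level of the 10 pan-endothelial markers was -1.74 ± 0.19 in IPF and -1.10 ± 0.073 in sham (SD, n = 5 each), a difference of -0.64 with no overlap (exact permutation test, two-sided p = 0.00794, adjusted p = 0.0238 over 6 such comparisons). The marker mean alone was higher in every IPF lung, at 6.31 to 6.53 against 6.23 to 6.27 in sham. Since Notch4 alone was lower in every IPF lung, this lack of overlap and its p were fixed beforehand and add no further evidence. Relative to the same markers Notch1 differed by -0.44 (exact permutation test, adjusted p = 0.0238), and every IPF lung lay below every sham lung. Notch1 by itself overlapped between the groups (log2 fold change -0.29, limma adjusted p = 0.270). Its separation appeared only after subtracting a marker mean that already divided the groups. Jag1 differed by -0.27 (exact permutation test, adjusted p = 0.0318), which became 0.0794 without IPF replicate 1, 2 or 4. Dll4 (difference -0.17, exact permutation test, adjusted p = 0.124) and Hey1 (-0.29, 0.0834) did not pass, but both did without IPF replicate 5 (0.0476 and 0.0159). Without Cldn5 among the markers, an alternative chosen after seeing the data, the differences were -0.60 for Notch4, -0.40 for Notch1 and -0.22 for Jag1, and each still passed.
For Notch3, the markers of smooth muscle and pericytes were used. Their summed level was 308.5 to 390.4 FPKM in IPF and 293.3 to 343.2 FPKM in sham, none was at 0, and 1 of 10 had an adjusted p under 0.05, the pericyte proteoglycan Cspg4, which fell by 0.43 in log2 (adjusted p = 0.0173 by limma). Of the 10, 5 had a positive and 5 a negative log2 fold change. Other pericyte genes of the list did not share the sign of Cspg4, with differences in log2 of 0.27 for Cox4i2, 0.19 for Pdgfrb, 0.18 for Trpc6 and 0.015 for Higd1b (adjusted p = 0.174, 0.286, 0.271 and 0.960 by limma). Acta2, the smooth muscle actin, was at 87.5 ± 31.1 FPKM in IPF and 92.4 ± 8.39 FPKM in sham (SD, n = 5 each, adjusted p = 0.739 by limma). The differences in log2 were -0.65 for Cnn1, -0.35 for Myh11, -0.066 for Tagln and 0.15 for Des (adjusted p = 0.354, 0.280, 0.883 and 0.420 by limma). Notch3 less the mean of all 10 markers, whose signs were mixed, differed by 0.16 between the groups (exact permutation test, adjusted p = 0.373).

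**Figure D4:**
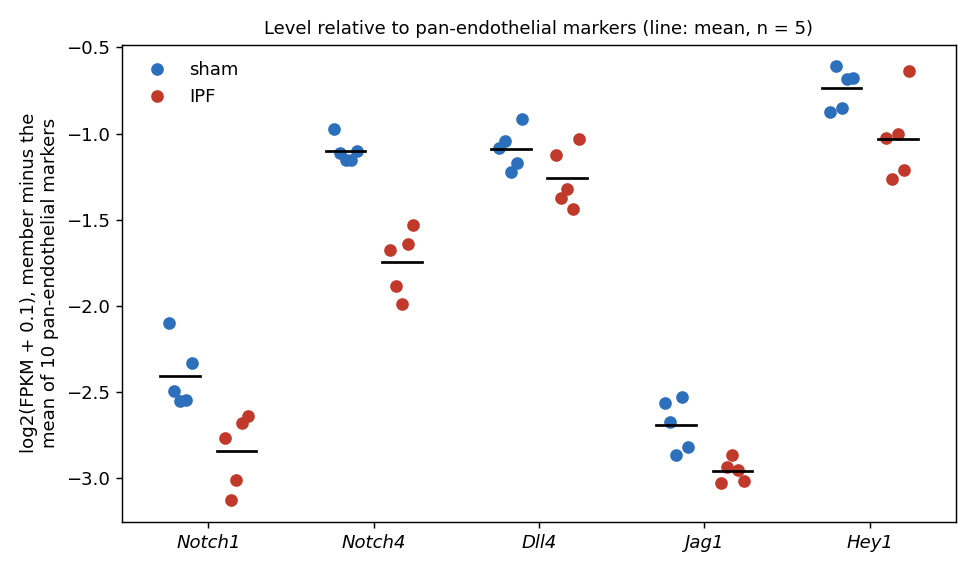
Log2(FPKM + 0.1) of 5 members less the mean of 10 pan-endothelial markers (vertical axis), 1 point per lung, sham in blue and IPF in red, with the group mean (n = 5) as a line. Notch4 and Notch1 are lower in every IPF lung than in every sham lung, with differences of -0.64 and -0.44, while the groups overlap for Dll4, Jag1 and Hey1.

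Within the groups, 3 of 45 pairs of members varied together at an adjusted p under 0.05. Over the deviations of the 10 lungs from their group means, 41 of the 45 pairs had a positive Pearson's r, a share not compared with that of other genes, and the 4 negative r were those of Jag2 with Dll4, Hey1 and Hes1 (-0.188, -0.184 and -0.26) and of Notch2 with Hes1 (-0.235). The 3 pairs that passed (exact permutation within groups) were all between receptors, and the share of pairs of other genes that would pass was not measured. Notch3 had r = 0.875 with Notch4, 0.873 with Notch1 and 0.682 with Notch2, each just short of passing (exact permutation, adjusted p = 0.0607). Notch1 and Notch4 had r = 0.904 (exact permutation p = 0.00278, adjusted 0.0417) and Spearman's rho = 0.976 (exact permutation p = 0.000972, adjusted 0.0167). Notch1 and Notch2 had r = 0.820 (exact permutation p = 0.000278, adjusted 0.0125) and rho = 0.770 (exact permutation p = 0.00111, adjusted 0.0167), and Notch2 and Notch4 had r = 0.564 (exact permutation p = 0.00208, adjusted 0.0417) and rho = 0.782 (exact permutation p = 0.000694, adjusted 0.0167). Without the 2 lungs farthest from the median of the first gene, r was 0.934, 0.71 and 0.812 for these pairs, and no pair kept an adjusted p under 0.05 over the 8 lungs left (adjusted exact permutation p of 0.146, 0.146 and 0.281).
The closest pair between a ligand and a target was Dll4 and Hey1, with r = 0.858 (exact permutation p = 0.00778, adjusted 0.0607) and rho = 0.855 (exact permutation p = 0.00389, adjusted 0.0438), and r = 0.650 without IPF replicate 5 and sham replicate 5.
Among 13435 other genes with a mean of at least 1 FPKM, those whose deviations were most like a member's were picked as the highest of many r over 10 lungs, and are a description only. They were Rdx (r = 0.989) and Itpripl2 (r = 0.982) for Notch4, Agfg1 (r = 0.991) and Stim1 (r = 0.987) for Notch1, Kidins220 (r = 0.986) for Notch2, and Furin (r = 0.979) and Pacs1 (r = 0.967) for Notch3. Furin encodes the convertase that cuts Notch receptors on their way to the cell surface. For the ligands they were Gm38910 (r = 0.976) and Nt5dc3 (r = 0.909) for Jag1, Nol11 (r = 0.931) and Cd5 (r = 0.908) for Jag2, Pcbp2 (r = 0.971) and Flvcr1 (r = 0.945) for Dll1, and Gm14964 (r = 0.963) and Gid4 (r = 0.962) for Dll4. For the targets they were Zfp91 (r = 0.952) and Tpst2 (r = 0.946) for Hey1, and Dnmt3b (r = 0.948) and Gm25965 (r = 0.920) for Hes1.

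The machinery around the members was followed through 55 other Notch pathway genes in 9 roles. Of these, 50 had a mean of at least 0.1 FPKM and 4 passed limma at an adjusted p under 0.05. All 4 were higher in the IPF group, beside 3.71% of all genes higher. No gene was called lower. At an unadjusted p under 0.05, 10 were higher and 1 was lower, beside 11.2% of all genes higher and 8.3% lower, so the 11 of 50 together are near the 19.5% of all genes. Limma voom called 5 higher and 1 lower, beside 7.16% of all genes called in either direction. The gene called lower was Numbl, an adaptor that can inhibit Notch, at 3.30 to 3.94 FPKM in sham and 2.67 to 3.12 FPKM in IPF (limma adjusted p = 0.0703). The median log2 fold change of the 50 genes was 0.050. The 5 genes under the filter were Dll3, Dlk1, Dlk2, Hes3 and Hes5.
The deltex ligase Dtx4, which adds ubiquitin to Notch receptors, was at 11.9, 13.0, 12.8, 12.0 and 8.03 FPKM in IPF replicates 1 to 5 and at 4.68, 5.20, 4.49, 4.65 and 5.20 FPKM in sham replicates 1 to 5. It rose in all 5 IPF lungs over all sham lungs (log2 fold change 1.22, standard error 0.12, limma adjusted p = 0.000356), with IPF replicate 5 lowest among the IPF lungs. Dtx3l, of the same family and known to pair with Parp9 in the interferon response, rose from 7.22 ± 0.499 to 9.87 ± 0.590 FPKM (SD, n = 5 each; difference 0.45 in log2, adjusted p = 0.00336 by limma). It overlaps Parp9 on the opposite strand, and reads of both can have been assigned to either, since the use of strand in counting is not given in the sources used here.
Adam17, a protease that sheds TNF and many other surface proteins and can cut Notch receptors, rose from 12.7 ± 0.548 to 17.6 ± 1.59 FPKM (SD, n = 5 each; difference 0.46 in log2, adjusted p = 0.00336 by limma), and it overlaps Iah1 on the opposite strand. Adam10, the main protease of ligand-induced Notch cutting, was at 36.5 ± 3.82 FPKM in sham and 38.5 ± 1.63 FPKM in IPF (SD, n = 5 each; adjusted p = 0.576 by limma). The other 8 proteases, γ-secretase subunits and Furin among them, did not pass.
Neurl3, a neuralized family ubiquitin ligase that is also induced in the lung by inflammation, was at 14.96, 24.0, 25.3, 17.4 and 9.49 FPKM in IPF replicates 1 to 5 and at 5.17, 8.67, 7.53, 8.25 and 6.4 FPKM in sham replicates 1 to 5. The groups did not overlap (log2 fold change 1.27, standard error 0.25, limma adjusted p = 0.0128). The other 4 genes of ligand ubiquitination did not pass, among them Mib1, the main ligase of Notch ligands, at 17.6 ± 1.89 FPKM in sham and 17.2 ± 1.79 FPKM in IPF (SD, n = 5 each; adjusted p = 0.882 by limma).

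**Figure D5:**
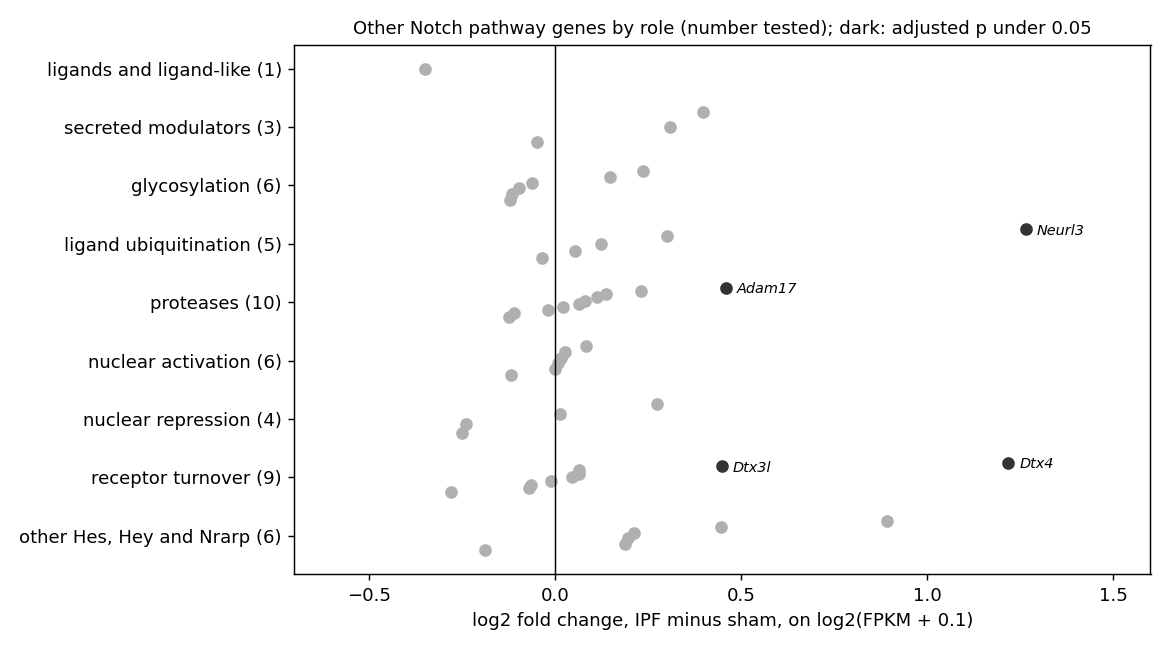
Log2 fold change (IPF minus sham, horizontal axis) of the 50 other Notch pathway genes tested, by role with the number tested in each, dark and named where the limma adjusted p was under 0.05. The named genes, Dtx4, Dtx3l, Adam17 and Neurl3, are all to the right of 0, between 0.45 and 1.27.

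In receptor turnover Numb, an inhibitor of Notch, was at 35.1 ± 2.70 FPKM in sham and 36.4 ± 4.35 FPKM in IPF (SD, n = 5 each; adjusted p = 0.824 by limma). No gene passed limma in the remaining 6 roles. In the nuclear complex the coactivator Maml1 was at 11.2 ± 1.54 FPKM in sham and 11.2 ± 1.09 FPKM in IPF (SD, n = 5 each; adjusted p = 0.980 by limma), and the median of the 6 genes was 0.012 in log2, with 0 of them at an unadjusted p under 0.05 and 0 called by limma voom. The 4 corepressor genes had a median of -0.11 in log2, and 1 of them was higher at an unadjusted p under 0.05. This was L3mbtl3, named after its values were seen, which was above all sham lungs in 5 of 5 IPF lungs, at 4.86 ± 0.306 against 4.00 ± 0.293 FPKM (SD, n = 5 each; difference 0.28 in log2, adjusted p = 0.0531 by limma), and which limma voom called. Of the fringe and other sugar-adding enzymes that tune ligand choice, Lfng was highest in the mean over both groups, at 22.1 ± 1.70 FPKM in sham and 26.2 ± 3.88 FPKM in IPF (SD, n = 5 each; difference 0.24 in log2, adjusted p = 0.200 by limma), with Eogt above it in sham at 23.4 FPKM. Of the secreted modulators, Egfl7, made by endothelium, was at 83.1 ± 12.6 FPKM in sham and 102.3 ± 7.36 FPKM in IPF (SD, n = 5 each; difference 0.31 in log2, adjusted p = 0.119 by limma). Dner was the highest of the ligand-like genes, at 0.213 ± 0.0679 FPKM in sham and 0.155 ± 0.0973 FPKM in IPF (SD, n = 5 each). Among the other Hes and Hey genes and Nrarp, Heyl, known from smooth muscle, was highest, at 17.6 ± 2.13 FPKM in sham and 20.1 ± 2.97 FPKM in IPF (SD, n = 5 each; adjusted p = 0.397 by limma), and the median log2 fold change of the 6 genes tested was 0.20. Hes2, named after its values were seen, had the largest fold change of these 6, at 1.84 ± 0.761 FPKM in IPF and 0.901 ± 0.210 FPKM in sham (SD, n = 5 each; difference 0.89 in log2, adjusted p = 0.0744 by limma), with 4 of 5 IPF lungs above all sham lungs, and it was called with array weights and without IPF replicate 5.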

How the data were processed

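Reads were paired. The authors used Fastp for trimming, HISAT2 for alignment and StringTie for expression, and the FPKM table they deposited has 1 column per lung sample and the length of each gene. The submitters' processing notes name Bowtie 0.12.2 and GRCm38. The methods name GRCm39, but the deposited positions overlap those of RefSeq on GRCm38.p6 for all 10 members. FPKM times length was a whole multiple of 1 step in each library (within 0.01 read) for 100.0% of values, which gave the reads, 15483046 to 19026843 per library. The spread between samples, not counting error, set the precision.

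Genes with a mean of at least 0.1 FPKM were tested with limma 3.58.1 (R 4.3.3, trended variances, no covariate) on log2(FPKM + 0.1), a scale that understates the change of low genes, with Benjamini-Hochberg adjustment over 20448 genes. The study used DESeq2, which was not run here; limma voom was the alternative on recovered reads. The script was tested on simulated data. Exact permutation tests were two-sided (Python 3.11.15, scipy 1.17.1). The labels give separate samples, and p-values measure the spread between these samples only. Pairs of a group differed beyond sampling noise (chi-square per degree of freedom 4.49 to 34.3). IPF and sham share replicate numbers, but nothing says that a number pairs animals.

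Members, pathway and marker lists were chosen with earlier results of these data known. Named genes were all members, pathway genes with an adjusted p under 0.05, the most abundant gene of each role, called endothelial and mural markers, the 2 genes most like each member, and for marker lists a highly expressed gene. Of the genes this rule picked, 2 are not reported here. Alternatives were pseudocounts of 1 and 0.01, no filter or a mean of at least 1 FPKM, median-of-ratios and quantile scaling, a replicate block, limma voom on recovered reads, array weights, a fit without the variance trend, marker means as covariates, and leaving out lungs. Raw reads and other assays of the study were not analysed here.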

Additional observations from a re-analysis of the deposited data

Results flagged for a closer look

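Sham replicate 1 lay far from the other sham lungs in Notch4, at 38.5 FPKM where they were at 33.9 to 35.1 FPKM (Dixon's test, gap over range 0.753 against a limit of 0.71). IPF replicate 5 lay far below the other IPF lungs in Dtx4, at 8.03 FPKM where they were at 11.9 to 13.0 FPKM (gap over range 0.789). Among 28 groups of 5 screened in this way 2 were found, and chance alone gives about 1 in 20.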

How the results depend on the processing

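The count of members with a limma adjusted p under 0.05, 1 as reported, was 0 without a variance trend (3 at an unadjusted p under 0.05), 2 with limma voom, 3 with the mean of pan-endothelial markers as a covariate, 0 to 2 when each lung was left out and 0 without both IPF replicate 3 and sham replicate 1 (3 at an unadjusted p under 0.05). The endothelial mean did not overlap between the groups (without Cldn5 it did), so that fit rests on the slope within them. It gave Notch4 -0.91, Notch1 -0.73 and Hey1 -0.67 on the log2 scale, each called, and turned Notch3 to -0.29. It also gave Dll1 -0.52 (limma adjusted p = 0.185), and a limma adjusted p of 0.134 for Dll4 and 0.873 for Hes1. The log2 fold change of Notch4 was -0.49 without the trend (limma adjusted p = 0.0501), -0.58 to -0.42 leaving out each lung and -0.39 without both libraries, and its adjusted p over all alternatives ran from 0.00229 to 0.0689. That of Dll4 ran from -0.11 to 0.033 leaving out each lung and was 0.0088 without both libraries. Over all alternatives Dll4 ran from -0.40 to 0.033 and Hes1 from 0.073 to 0.36. The pathway count of 4 was 7 with array weights, and the 4 genes named were called in all 24 alternatives. Over all genes the count of 1196 was 775 to 1620 leaving out each lung. Members that passed relative to their markers, 3 of 6, were 2 to 5 leaving out each lung. With the replicate block (deviations of same-numbered lungs correlated at -0.020 to 0.095, so the numbers were not taken as pairs) 1 member and 1045 genes were called, and 0 of 6 relative to markers, where 5 sign flips cannot give a p under 0.0625. Called correlations fell from 3 to 0 without the 2 farthest lungs. The r went from 0.904 to 0.934 for Notch1 and Notch4, from 0.820 to 0.71 for Notch1 and Notch2, and from 0.564 to 0.812 for Notch2 and Notch4. Fewer lungs allow fewer permutations within groups, so the smallest p that can be reached is larger and the lost calls cannot be read as lost correlation. The causes of these shifts were not tested. With 5 lungs a group and a sex difference that follows the groups, no fit could separate sex from the operation.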
